A study of Mus musculus with 6 samples.

Results

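A set of 10 genes of MHC class I antigen presentation was followed in leukaemia cells from the spleens of mice treated with an inhibitor of casein kinase 1 or with its vehicle. They were chosen by symbol: B2m, H2-K1, H2-D1, H2-Q4, H2-Q7, H2-T22, H2-T23, H2-T24, H2-M3 and Nlrc5. All 10 were found among the 54232 genes of the count table, each in 1 row. The cells derive from Eµ-TCL1 mice, in which the TCL1 oncogene is driven in B cells and a CD5-positive leukaemia develops that is used as a model of chronic lymphocytic leukaemia (CLL). Mononuclear cells from spleens of terminally ill Eµ-TCL1 donors were injected into the peritoneum of wild-type C57BL/6J recipients, and no conditioning of the recipients is given in the sources used here. From day 5 after transfer the recipients received by mouth either PF-670462 at 50 mg/kg, which blocks the delta and epsilon forms of casein kinase 1, dissolved in 10% kolliphor/PBS (CK1i, 3 libraries), or 10% kolliphor/PBS alone (CTRL, 3 libraries). Each 5 days of dosing were followed by 2 without, over 8 weeks, and treatment ended when the CTRL mice reached terminal disease. Leukaemic B cells were then sorted from the spleen. Age and sex of the recipients, the sort markers and the number of donors are not given in the sources used here. Each library carries a number of its own in its title, but the labels do not say that this number marks a mouse, and p-values therefore cover only the spread between these samples, which may be technical.

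MHC class I molecules display peptides from inside the cell to CD8 T cells. Each consists of a polymorphic heavy chain and the invariant light chain beta-2-microglobulin, and it is loaded in the endoplasmic reticulum with peptides that the proteasome cuts and the TAP transporter imports. The classical heavy chains are expressed on nearly all nucleated cells, whereas the nonclassical ones are less polymorphic and serve as ligands for natural killer cells, gamma delta T cells or specialised T cells. The coactivator NLRC5 acts at the promoters of class I genes through a set of conserved boxes, and interferon and NF-kappa B signalling act on neighbouring elements.

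The heavy-chain genes lie in the MHC on chromosome 17, B2m on chromosome 2 and Nlrc5 on chromosome 8. On GRCm38, in the GENCODE M21 annotation, H2-K1 spans chr17:33996017-34000347, H2-D1 chr17:35262730-35267499, H2-Q4 chr17:35379617-35385290, and H2-Q7 chr17:35439155-35443773. The T genes follow, with H2-T24 at chr17:36005695-36020560, H2-T23 at chr17:36029773-36032855 and H2-T22 at chr17:36037128-36042747, and H2-M3 lies at chr17:37270220-37274484. B2m spans chr2:122147686-122153083 and Nlrc5 chr8:94434356-94527272. All 10 are annotated as protein coding.

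The promoters of 4 members are shown because they carry the elements through which class I genes are thought to be controlled, in 2 classical genes, the light chain gene and H2-T22, the member with the largest difference between the groups. RefSeq promoters on GRCm38.p6 were found for 8 of the 10 members (H2-T24 and Nlrc5 had none), each running from 250 bases before to 50 bases after the annotated start. Those printed are chr17:34000298-34000597 on the minus strand for H2-K1, chr17:35262844-35263143 on the plus strand for H2-D1, chr2:122147437-122147736 on the plus strand for B2m and chr17:36042693-36042992 on the minus strand for H2-T22. Sequences read 5′ to 3′ along the gene, and capitals mark matches, on either strand, to 4 motifs. These were the interferon-stimulated response element, the CCAAT box, the TGACGT core of a cAMP response element, and the kappa B site.
H2-K1: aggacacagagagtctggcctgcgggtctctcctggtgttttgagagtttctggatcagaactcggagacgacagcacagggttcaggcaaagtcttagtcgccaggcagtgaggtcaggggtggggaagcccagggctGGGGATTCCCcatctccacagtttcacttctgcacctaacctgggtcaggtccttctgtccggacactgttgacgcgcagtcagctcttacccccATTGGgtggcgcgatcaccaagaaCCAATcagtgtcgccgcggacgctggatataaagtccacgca
H2-D1: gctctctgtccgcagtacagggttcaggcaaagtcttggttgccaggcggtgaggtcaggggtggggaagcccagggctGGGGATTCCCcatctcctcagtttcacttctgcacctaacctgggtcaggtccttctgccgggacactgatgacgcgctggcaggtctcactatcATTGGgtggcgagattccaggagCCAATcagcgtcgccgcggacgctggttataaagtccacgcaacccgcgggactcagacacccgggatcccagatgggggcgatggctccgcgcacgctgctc
B2m: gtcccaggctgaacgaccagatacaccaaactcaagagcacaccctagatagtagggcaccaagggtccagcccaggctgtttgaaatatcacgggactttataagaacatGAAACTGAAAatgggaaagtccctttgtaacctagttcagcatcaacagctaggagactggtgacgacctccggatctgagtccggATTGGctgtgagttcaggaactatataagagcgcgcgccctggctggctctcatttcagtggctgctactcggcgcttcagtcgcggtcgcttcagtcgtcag
H2-T22: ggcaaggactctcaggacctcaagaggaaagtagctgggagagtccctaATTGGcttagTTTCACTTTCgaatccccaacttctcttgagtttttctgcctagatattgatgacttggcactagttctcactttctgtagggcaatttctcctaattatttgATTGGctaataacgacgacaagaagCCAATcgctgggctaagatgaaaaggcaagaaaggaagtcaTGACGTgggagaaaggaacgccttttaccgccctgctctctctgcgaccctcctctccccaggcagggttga

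A CCAAT match was present in the promoters of 8 of the 8 members, against 37.4% of the 32851 promoters of the same length in the RefSeq table. The kappa B match occurred in 4 of them (H2-K1, H2-D1, H2-Q4 and H2-Q7), against 1.75% of all promoters. In H2-K1 and H2-D1 the matched letters were the same, GGGGATTCCC, 111 and 171 bases before the first listed start. H2-K1 has a second listed start, 125 bases after the beginning of the same match, so these distances depend on the start annotated. H2-T22 had no kappa B match in this window. The interferon element was matched in B2m, H2-T22 and H2-T23, against 3.44% of all promoters. It read GAAACTGAAA from 139 bases before the B2m start, and TTTCACTTTC, the match on the opposite strand, from 191 bases before the H2-T22 start. The TGACGT core was matched in H2-Q4, H2-Q7 and H2-T22, against 7.51% of all promoters. No match to one motif overlapped a match to another in the 4 printed promoters. The class I promoters share ancestry, so these counts are not independent, and a match describes letters only. Each motif was searched as a fixed pattern, so variants that differ from it at a fixed letter were not counted. A missing match therefore does not show that an element is absent. This holds for the interferon element and the TGACGT core in H2-K1 and H2-D1, where neither was matched.

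**Figure D1:**
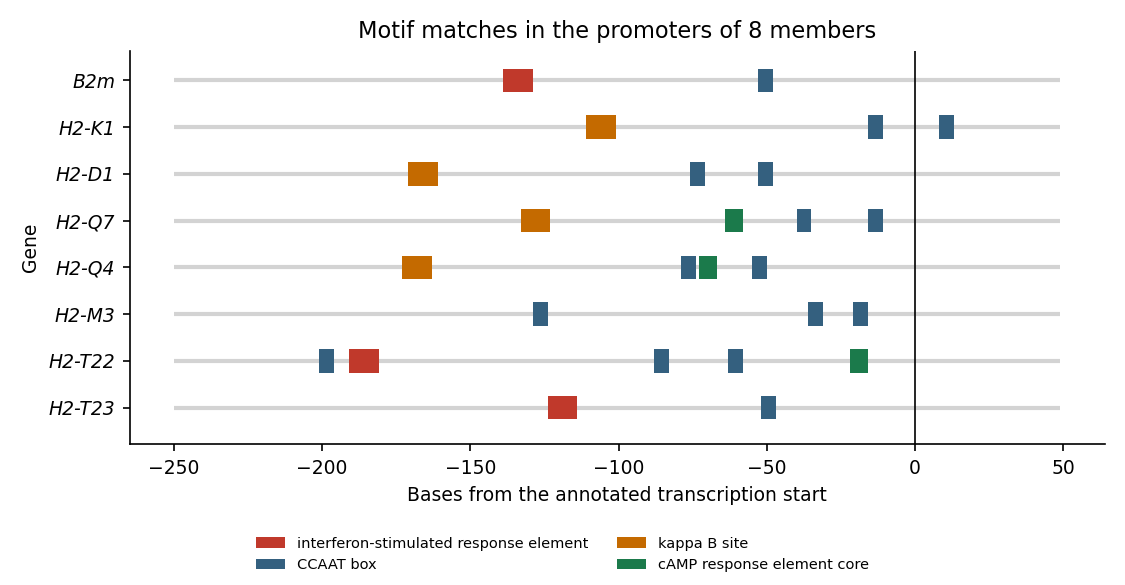
Positions of motif matches in the promoters of 8 members, in bases from the annotated transcription start (0), for the first listed start of each gene. Every promoter has at least 1 CCAAT match (blue), and the kappa B match (orange) occurs in H2-K1, H2-D1, H2-Q7 and H2-Q4.

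The libraries held 2472064 to 3105137 counts each, and 1 count corresponded to 0.322 to 0.405 CPM, a unit that puts libraries of unequal depth on 1 scale. The first principal component, with 28.0% of the variance, set CTRL replicate 1 (31.4) apart from the other libraries (-12.4 to 4.68). Markers of B and CLL cells summed to 5454 to 5827 CPM with CK1i and 5451 to 5726 CPM with CTRL, with all 8 genes detected. T-cell markers summed to 0 to 10.0 CPM with CK1i and 1.20 to 2.13 CPM with CTRL (7 genes found), and NK-cell markers stayed at 0.71 to 1.30 CPM, with Ncr1 and Gzmb at 0 counts. Neutrophil markers reached 3.29 CPM in CK1i replicate 1 and 0 elsewhere, dendritic-cell markers 0.40 to 3.34 CPM, and erythroid markers 3.21 to 5.68 CPM. The stromal and endothelial markers summed to 163 to 191 CPM, nearly all from Pecam1 (165 CPM with CK1i and 179 CPM with CTRL on average).

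The cells carried abundant class I transcripts, and 7 of the 8 members that could be tested had overlapping values in the groups. The 9 members other than Nlrc5 together took 0.87% ± 0.03 of all counts in CK1i and 0.85% ± 0.07 in CTRL (SD, n = 3). H2-T22 stood at the upper end, with a mean of 45.4 CPM with CK1i and 28.3 CPM with CTRL and no overlap between the groups. Over the 10067 tested genes, 525 (5.22%) had every CK1i value above every CTRL value, and 451 had every CK1i value below. No member passed an adjusted p of 0.05 by edgeR's quasi-likelihood test, nor did any of the 10067 tested genes (0%). DESeq2 called 8 of all genes and limma-voom 0, and no member was among those 8. Of the 10 members, 8 passed the filter on low counts, and H2-T23 and H2-T24 did not. Among the 8, 5 had a log2 fold change above 0 and 3 below it, with a median of 0.038, against a median of -0.0055 and 48.8% of genes above 0 over all tested genes. At an unadjusted p under 0.05, 1 member was higher and 0 lower, against 2.7% and 2% of all tested genes. In bulk libraries such as these, a change in the share of cells that carry a transcript and a change in its amount per cell cannot be told apart.

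**Figure D2:**
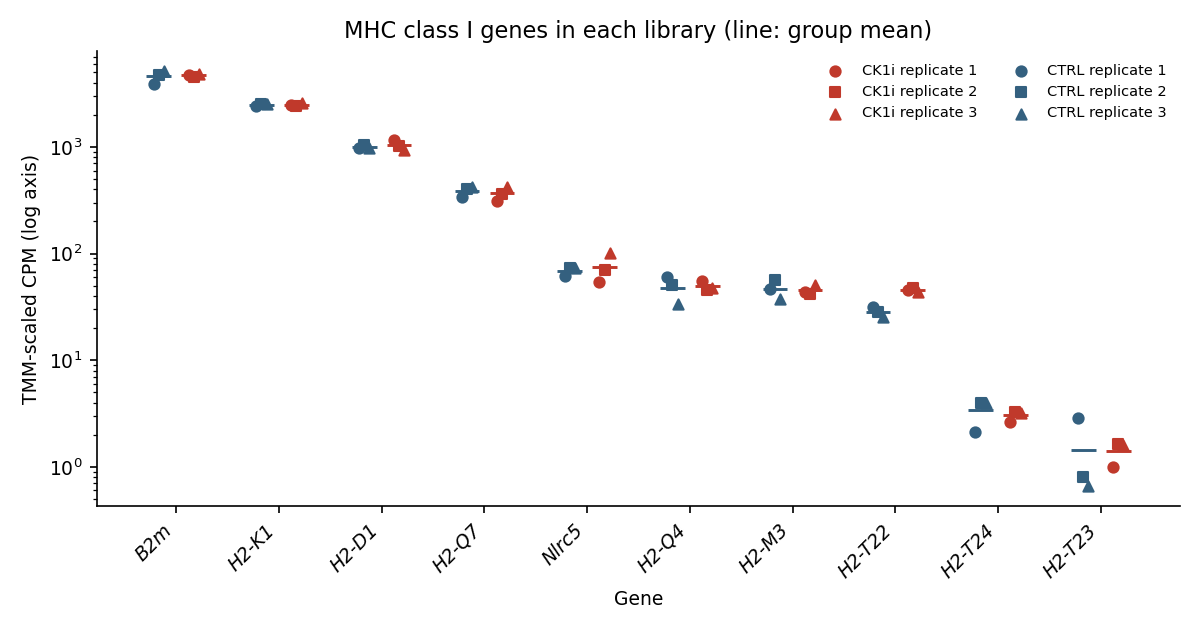
TMM-scaled CPM of the 10 members on a log axis, 1 symbol per library (circle, square and triangle for replicates 1 to 3), with group means as lines. B2m lies highest, at a mean of 4636 CPM, H2-T23 and H2-T24 lie lowest, and H2-T22 shows its CK1i symbols (red) above its CTRL symbols (blue).

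B2m encodes beta-2-microglobulin, the light chain shared by all class I molecules. It had 4699, 4541 and 4853 CPM for CK1i replicates 1 to 3, and 3891, 4736 and 5098 CPM for CTRL replicates 1 to 3. CTRL replicate 1 was the lowest of the libraries and CTRL replicate 3 the highest, so the CTRL values enclosed those of CK1i. The log2 fold change was 0.04 ± 0.17 (SE; adjusted p by edgeR = 0.9996), and its 95% interval runs from a fold of 0.798 to 1.32. Without CTRL replicate 1 the log2 fold change was -0.07.

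H2-K1, which encodes the classical heavy chain K, was the steadiest of the abundant transcripts. It had 2479, 2394 and 2580 CPM with CK1i and 2439, 2542 and 2507 CPM with CTRL. Both groups lay within the same narrow band. Over the 6 libraries its coefficient of variation was 2.73%, the smallest of the 79 tested genes with a mean of at least 1000 CPM, whose median was 13.3%. Its log2 fold change was -0.01 ± 0.15 (SE; adjusted p by edgeR = 0.9996), with a 95% interval from a fold of 0.797 to 1.24. The sign of so small a value was not stable, at 0.0019 with library size scaling alone and 0.02 without CK1i replicate 2.

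H2-D1 encodes the other classical heavy chain followed here, D. It had 1158, 1016 and 943 CPM with CK1i and 985, 1051 and 975 CPM with CTRL. CK1i held both the highest library (replicate 1) and the lowest (replicate 3). The log2 fold change was 0.05 ± 0.15 (SE; adjusted p by edgeR = 0.9996), with a 95% interval from a fold of 0.834 to 1.29. It was -0.04 without CK1i replicate 1. The coefficient of variation was 7.49% for H2-D1 and 8.83% for B2m, which put them at ranks 5 and 10 from the smallest among the same 79 genes.

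The shares of H2-K1, H2-D1 and H2-Q7 among the class I transcripts overlapped between the groups, and the ratio of H2-T22 to H2-K1 did not. Ratios here are of counts; 3′ end libraries read the end of each transcript, and the counts were not divided by length. H2-K1 took 60.5% to 63.0% of the counts of the 8 heavy-chain members in CK1i and 61.5% to 62.6% in CTRL. H2-D1 took 23.03% to 28.2% in CK1i and 24.3% to 25.4% in CTRL. H2-Q7 took 7.66% to 10.4% and 8.65% to 10.5%. The ratio of B2m to the sum of H2-K1 and H2-D1 was 1.29, 1.33 and 1.38 for CK1i replicates 1 to 3, with 1.14, 1.32 and 1.46 for CTRL replicates 1 to 3. Each of these ranges overlapped between the groups. H2-T22 had 16.8 to 19.8 counts per 1000 of H2-K1 in CK1i and 10.12 to 12.8 in CTRL, without overlap. H2-M3 had 17.5 to 19.6 in CK1i and 14.9 to 22.3 in CTRL, with overlap. H2-K1 varied little over the libraries (coefficient of variation 2.73%), so the H2-T22 ratio largely restates the H2-T22 values.

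H2-Q7 encodes a heavy chain of Qa-2, a nonclassical molecule that is largely tethered to the membrane by a lipid anchor. It had 314, 365 and 424 CPM with CK1i and 338, 403 and 422 CPM with CTRL. The groups overlapped almost completely, and replicate 1 was the lowest library of each. The log2 fold change was -0.08 ± 0.15 (SE; adjusted p by edgeR = 0.9995), and it was 0.02 without CK1i replicate 1. H2-Q6, a near copy beside it, had 66.1, 55.5 and 87.0 CPM with CK1i and 81.6, 75.4 and 38.7 CPM with CTRL, so CTRL replicate 3 was lowest. CTRL replicate 3 was thus low for H2-Q6 and high for H2-Q7, and its ratio of H2-Q7 to H2-Q6 counts was 10.9, where the other libraries had 4.13 to 6.58. Of the 75-base sequences in the last 500 bases of the H2-Q6 transcripts, 32.2% also occurred in transcripts of other genes, H2-Q7 among them. For H2-Q7 itself the share was 7.37%, all of it with H2-Q5. The split of reads between these copies is therefore uncertain. Summed, H2-Q6 and H2-Q7 reached 437 ± 67.3 CPM with CK1i against 453 ± 30.4 CPM with CTRL (SD, n = 3), and the log2 fold change was -0.05 ± 0.15 (SE; adjusted p by edgeR = 0.9998). H2-Q8 and H2-Q9 were not found by symbol in the table.

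H2-Q4, a nonclassical heavy-chain gene of the same cluster, had 55.3, 45.02 and 47.3 CPM with CK1i and 60.0, 50.3 and 33.7 CPM with CTRL. CTRL held both the highest and the lowest library. Its log2 fold change was 0.04 ± 0.20 (SE; adjusted p by edgeR = 0.9996), which moved to -0.06 when CK1i replicate 1 was left out and to -0.16 when CTRL replicate 3 was. H2-Q4 shares 496 exonic bases with the antisense gene Gm11131, which held 165 counts against 820 for H2-Q4. No source used here gives the strand setting of the counting, so the H2-Q4 value is uncertain.

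H2-T22 encodes a nonclassical class I molecule that carries no conventional peptide and is bound by a subset of gamma delta T cells. It had 45.7, 47.3 and 43.3 CPM for CK1i replicates 1 to 3, from 139, 145 and 108 counts, and 31.2, 28.3 and 25.4 CPM for CTRL replicates 1 to 3, from 88, 71 and 76 counts. Every CK1i value exceeded every CTRL value, an order that 5.22% of all tested genes had. The log2 fold change was 0.68 ± 0.17 (SE), a fold of 1.61 with a 95% interval from 1.25 to 2.06, and the unadjusted edgeR p was 0.0010, rank 20 among the 10067 tested genes. After adjustment over all tested genes the edgeR p was 0.493, so H2-T22 did not pass. The log2 fold change stayed between 0.61 and 0.76 over 12 alternative settings, with adjusted p from 0.257 to 0.9997. Per 1000 counts of H2-K1, H2-T22 had 18.4, 19.8 and 16.8 counts in CK1i and 12.8, 11.1 and 10.12 counts in CTRL. That ratio does not depend on library scaling, but it uses the same H2-T22 counts and is not separate evidence.

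**Figure D3:**
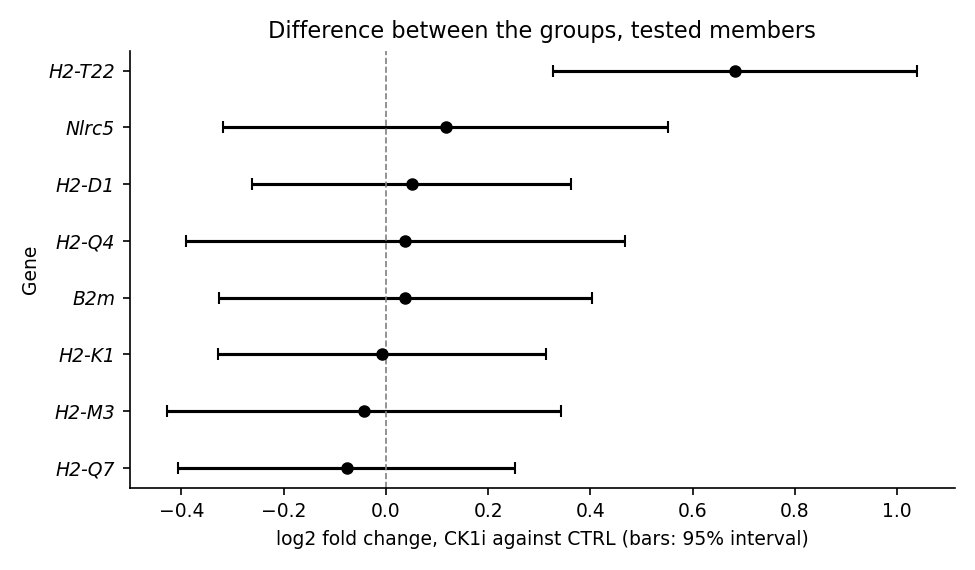
Log2 fold change of CK1i against CTRL for the 8 tested members (points) with 95% intervals from edgeR (bars, n = 3 libraries per group). The H2-T22 interval runs from 0.33 to 1.04, and the intervals of the other 7 members include 0.

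H2-T22 has a near-identical neighbour, H2-T10, which GENCODE annotates as a polymorphic pseudogene at chr17:36115876-36121465. Of the 75-base sequences in the last 500 bases of the H2-T22 transcripts, 39.0% also occur in H2-T10 transcripts, so reads between them can be lost or assigned to either. H2-T10 had 10.5, 16.0 and 15.6 CPM with CK1i and 9.23, 13.2 and 7.34 CPM with CTRL. These values overlapped, with a log2 fold change of 0.51 ± 0.29 (SE; unadjusted p = 0.096 and adjusted p = 0.9995 by edgeR). With both genes summed, counts were 171, 194 and 147 in CK1i and 114, 104 and 98 in CTRL. That sum gave a log2 fold change of 0.64 ± 0.16 (SE, with adjusted p by edgeR = 0.542), with every CK1i library above every CTRL library. Over all libraries H2-T22 held 627 counts and H2-T10 201, so the sum largely restates the H2-T22 values and is not separate evidence. H2-T9 was not found by symbol in the table. The antisense gene A930015D03Rik, which shares 1003 exonic bases with H2-T22, held 6 counts over the 6 libraries.

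Of 8 listed markers of monocytes and macrophages, Cd68 alone had enough counts to be tested. The 8 genes summed to 33.9 to 40.1 CPM with CK1i and 24.1 to 27.9 CPM with CTRL. Cd68, a lysosomal protein of macrophages that is not exclusive to them, supplied most of the sum, with 34.9, 31.0 and 32.5 CPM with CK1i and 20.9, 25.1 and 23.7 CPM with CTRL. Its groups did not overlap, with CK1i above CTRL as in H2-T22 and in 5.22% of all tested genes. The log2 fold change of Cd68 was 0.50 ± 0.18 (SE, with adjusted p by edgeR = 0.929). The other listed markers had too few counts to be tested, and counts this low can hardly show an order between the groups. Cd14 had 0 counts in all libraries, Csf1r had 1 count in CK1i and 5 in CTRL, C1qa 1 and 1, C1qb 0 and 1, and C1qc 2 and 2. Lyz2 had 11 counts in CK1i and 5 in CTRL and Adgre1 had 19 and 10, with values that overlapped between the groups. Their part in the H2-T22 result was not tested.

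H2-T23 encodes Qa-1, which presents a leader peptide of other class I chains to inhibitory NKG2A receptors. It had 3, 5 and 4 counts in CK1i and 8, 2 and 2 counts in CTRL, and the sum was 12 in each group. At this depth the gene lay near the floor of 3 counts in a library (0.966 to 1.21 CPM), and no difference was detectable. Of the 75-base sequences in the last 500 bases of its transcripts, 20.0% also occurred in other genes. H2-T24, a further T-region gene, had 8, 10 and 8 counts in CK1i and 6, 10 and 12 counts in CTRL, or 26 and 28 in sum. Neither gene entered the test.

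H2-M3 encodes a nonclassical molecule specialised for peptides that start with formylmethionine, as bacterial and mitochondrial proteins do. It had 43.4, 42.1 and 50.5 CPM with CK1i and 46.1, 56.7 and 37.4 CPM with CTRL. The CTRL libraries were the more spread, and they enclosed those of CK1i. The log2 fold change was -0.04 ± 0.18 (SE; adjusted p by edgeR = 0.9996), with a 95% interval from a fold of 0.743 to 1.27. It was 0.11 without CTRL replicate 2 and 0.0053 without CK1i replicate 2.

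Nlrc5 encodes the class I transactivator, an interferon-inducible protein of the NLR family. It had 53.6, 70.8 and 101 CPM with CK1i and 61.1, 73.5 and 72.4 CPM with CTRL. CK1i held the lowest library (replicate 1) and the highest (replicate 3). The group means were 75.03 ± 23.8 and 69.0 ± 6.88 CPM (SD, n = 3), with a log2 fold change of 0.12 ± 0.20 (SE; adjusted p by edgeR = 0.9995). It was -0.16 without CK1i replicate 3. By mean level over the 6 libraries, Nlrc5 (72.0 CPM) was followed by H2-Q4 (48.6), H2-M3 (46.04) and H2-T22 (36.9), and the ranges of neighbours in this order overlapped. The order of the last 2 differed by group, with means of 45.4 CPM for H2-T22 and 45.3 for H2-M3 in CK1i, against 28.3 and 46.7 in CTRL.

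The level of Nlrc5 was compared with that of the other tested members across libraries, and no relation passed the correction. Over the 6 libraries, Nlrc5 and H2-Q7 had a Pearson r of 0.86 (exact permutation p = 0.0125, adjusted p = 0.0875 over 7 relations) and a Spearman rho of 0.94 (exact permutation p = 0.017, adjusted p = 0.117), two-sided. Without CK1i replicates 1 and 3, the libraries farthest from the Nlrc5 median, r was 0.87 over 4 libraries. Nlrc5 and H2-K1 had an r of 0.61 (exact permutation p = 0.193, adjusted p = 0.45), rho of 0.77 (exact permutation p = 0.103, adjusted p = 0.36), and r of 0.47 without those libraries. H2-T22 fell into separate ranges by group, so no r with Nlrc5 over all libraries is given, and 3 libraries are too few for one within a group. The other 4 relations had r from -0.75 for H2-D1 to 0.42 for B2m. For H2-D1 the exact permutation p was 0.096 (adjusted p = 0.34), rho was -0.60 (exact permutation p = 0.24, adjusted p = 0.42), and r was 0.47 without the 2 libraries, so it rested on them. For B2m the exact permutation p was 0.37 (adjusted p = 0.59), rho was 0.66 (exact permutation p = 0.175, adjusted p = 0.41), and r was 0.93 without them.

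**Figure D4:**
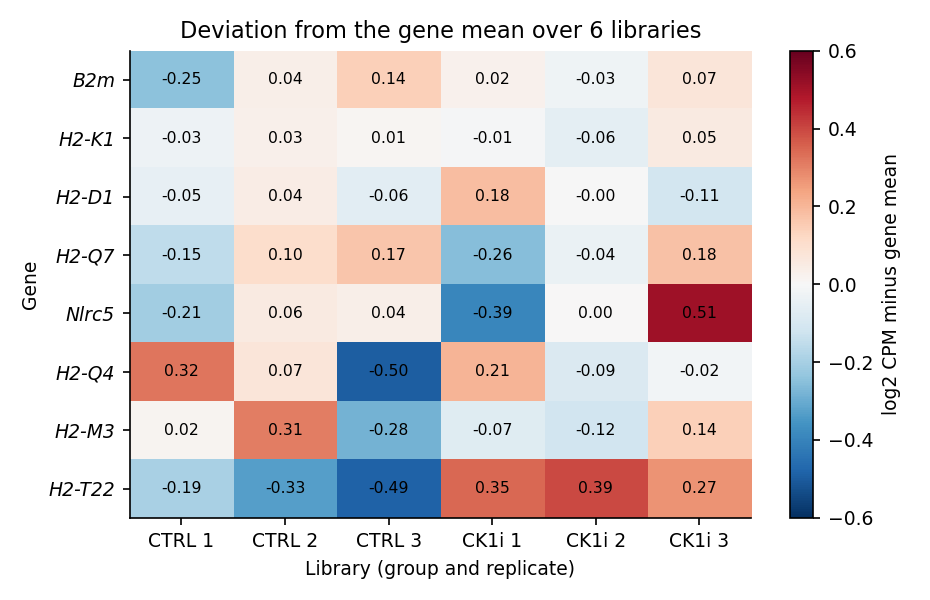
Log2 CPM of the 8 tested members in each library minus the gene's mean over the 6 libraries, red above and blue below the mean. H2-T22 is below its mean in every CTRL library and above it in every CK1i library; Nlrc5 ranges from -0.39 in CK1i replicate 1 to 0.51 in CK1i replicate 3.

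Other class I and class I-like genes were mostly near 0 or too low to test. Of 30 listed genes 22 were found by symbol, 9 had 0 counts throughout (an upper limit of 0.176 CPM, from 3 counts over all libraries), and 5 were tested. Of the 5, 4 had a log2 fold change above 0, 0 passed the adjusted threshold and 1, Cd1d1, had an unadjusted edgeR p under 0.05. Of all tested genes, 48.8% were above 0, and at that p 2.7% were higher and 2% lower. Cd1d1 encodes the lipid-presenting molecule that natural killer T cells recognise. It had 31.9, 32.6 and 31.3 CPM with CK1i and 18.1, 25.5 and 23.4 CPM with CTRL. Every CK1i value exceeded every CTRL value, an order that 5.22% of all tested genes had. The log2 fold change of Cd1d1 was 0.52 ± 0.19 (SE, with unadjusted p = 0.016 and adjusted p = 0.943 by edgeR). Mr1, which presents vitamin metabolites to MAIT cells, had 0.13 ± 0.28, H2-Q6 0.09 ± 0.27, and H2-K2, annotated as a pseudogene, -0.18 ± 0.34.

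The machinery that makes and loads class I peptides showed no member past the adjusted threshold in either direction. In peptide transport, trimming and loading, all 9 listed genes were tested, 5 above 0 and 4 below, with a median log2 fold change of 0.041. Tap1 and Tap2, the subunits of the peptide transporter, had -0.01 ± 0.16 and 0.27 ± 0.36, and Tapbp, which bridges TAP and the heavy chain, had -0.12 ± 0.16 (SE). The chaperone Canx had 0.14 ± 0.14, and Uggt1, which checks the folding of glycoproteins, had 0.06 ± 0.13. Without CTRL replicate 1, 3 of these genes were above 0, and without CTRL replicate 3, 8 were.

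Among the 5 genes of the immunoproteasome and its activator, 4 were above 0, against 48.8% of all tested genes. Their median log2 fold change was 0.13, against -0.0055 over all tested genes. The immunoproteasome's catalytic subunits Psmb8, Psmb9 and Psmb10 had 0.07 ± 0.14, 0.24 ± 0.16 and -0.07 ± 0.18, and the activator subunit Psme1 had 0.13 ± 0.14 (SE). Psme2, the partner of Psme1, had 7.57, 6.85 and 10.4 CPM with CK1i and 4.97, 5.99 and 5.34 CPM with CTRL. These values did not overlap, and 5.22% of all tested genes had the same order. The log2 fold change of Psme2 was 0.59 ± 0.31 (SE, with unadjusted p = 0.079 and adjusted p = 0.9995 by edgeR). Of the 3 constitutive catalytic subunits, 1 was above 0. Psmb5 had 0.75 ± 0.31 (SE; unadjusted p = 0.032 and adjusted p = 0.9995 by edgeR) from 181 counts in all and its groups overlapped, while Psmb6 and Psmb7 had -0.16 ± 0.15 and -0.15 ± 0.20.

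**Figure D5:**
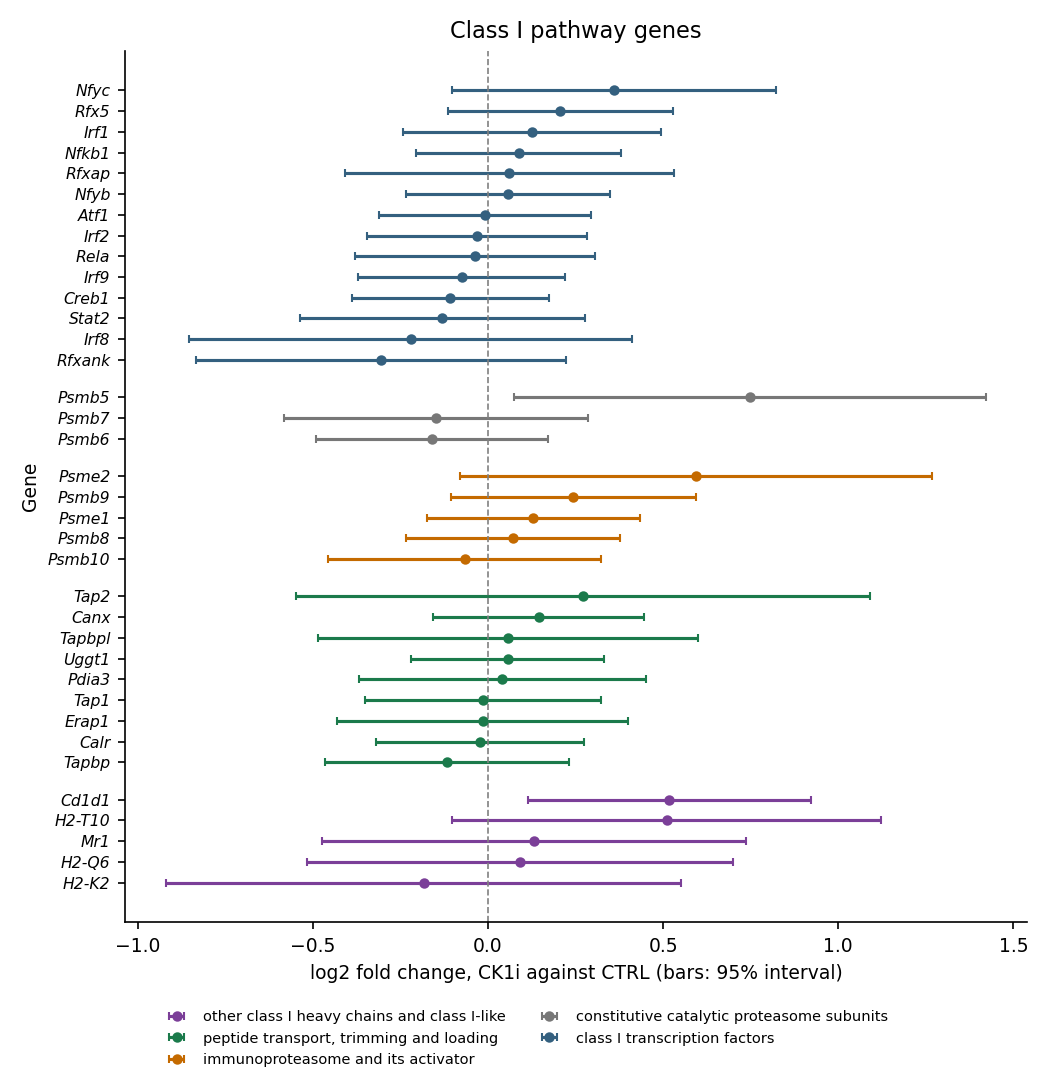
Log2 fold change of CK1i against CTRL with 95% intervals (edgeR, n = 3 libraries per group) for the tested genes of 5 class I lists, coloured by list. The intervals of Cd1d1 and Psmb5 lie above 0 before adjustment, and those of the transport and loading genes all include 0.

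Transcription factors that act at class I promoters had 14 tested genes of 15, 6 above 0 and 8 below, a median log2 fold change of -0.020, and 0 at an unadjusted p under 0.05. Irf1 had 0.13 ± 0.17, and the promoter-binding factors Rfx5, Rfxank and Nfyc, which bind the X and Y boxes, had 0.21 ± 0.15, -0.31 ± 0.25 and 0.36 ± 0.22 (SE). Interferon receptors and their kinases had 7 tested genes, 2 above 0 and 5 below, none at an unadjusted p under 0.05. Those with the smallest p were the type I receptor chains Ifnar1 with 0.20 ± 0.21, Ifnar2 with -0.19 ± 0.20, the kinase Tyk2 with -0.14 ± 0.16 and the gamma receptor chain Ifngr1 with -0.13 ± 0.14.

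Interferon-stimulated genes had 19 tested of 30 listed, 13 above 0 and 6 below, with a median log2 fold change of 0.19. Over all tested genes, 48.8% were above 0 and the median was -0.0055, and the list itself was not tested. None of the 19 passed the adjusted threshold. Against 2.7% of all tested genes, 3 of them were higher at an unadjusted edgeR p under 0.05. These encode guanylate-binding proteins, GTPases that interferon induces: Gbp3 with 0.46 ± 0.15, Gbp2 with 0.47 ± 0.21 and Gbp7 with 0.35 ± 0.15 (SE). Irgm2, a related GTPase, had 0.60 ± 0.32. The count above 0 fell to 8 without CK1i replicate 3, and it rose to 16 without CK1i replicate 1 and to 17 without CK1i replicate 2. MHC class II presentation genes were split, with 5 of 10 above 0, a median of 0.0065 and 0 at an unadjusted p under 0.05. Without CTRL replicate 3, 9 of the class II genes were above 0, and without CK1i replicate 1 or CTRL replicate 1, 3 were. Ciita, the class II counterpart of Nlrc5, had 0.20 ± 0.15 (SE). H2-Oa, a chain of the modulator of class II loading, had 0.26 ± 0.14, the class II alpha chain gene H2-Aa 0.14 ± 0.18, and Cd74, the invariant chain, -0.21 ± 0.19.

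Class II and classical class I transcripts were also set side by side. The coefficient of variation over the 6 libraries was 13.3% for H2-Aa, 13.3% for H2-Eb1 and 21.1% for H2-Ab1, where it was 2.73% for H2-K1 and 7.49% for H2-D1. It was 7.18% for H2-Ob, so not every class II gene lay above both classical class I genes, and the differences were not tested. The sum of H2-Aa, H2-Ab1 and H2-Eb1 counts was 3.66, 3.23 and 2.77 times that of H2-K1 and H2-D1 for CK1i replicates 1 to 3, against 2.696, 3.07 and 3.68 times for CTRL replicates 1 to 3. These ratios overlapped between the groups.

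Receptors that read class I on other cells were nearly absent from the sorted cells. Of 12 listed genes 7 had 0 counts, and 1 could be tested. That gene was Pirb, an inhibitory class I receptor that B cells also carry, with a log2 fold change of 0.08 ± 0.19 (SE; adjusted p by edgeR = 0.9995). Cd8a had 5 counts, all in CK1i, and Cd8b1 had 8, of which 6 were in CK1i; both were named after their values were seen.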

How the data were processed

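Gene expression was measured in 6 libraries of sorted splenic CLL cells, 3 CK1i and 3 CTRL, made with a QuantSeq 3′ forward kit with unique molecular identifiers (UMIs) and read as single 75-base reads, per the labels' protocols. The deposited file holds whole-number counts per gene that the authors made from their reads. Per the submitters' processing notes, the build was GRCm38.p6 and the tools included STAR 2.7.3a, featureCounts 1.6.3, UMI-tools 1.1.1 and Trimmomatic 0.36, with no role or order given. UMI collapsing and strand setting are not given in the sources used here. Without UMI collapsing, counts are not independent molecules, so floors cover counting error only.

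Testing used edgeR 4.0.16 under R 4.3.3. The function filterByExpr (minimum count 10, minimum total 15) kept 10067 genes, libraries were scaled by TMM, and a robust quasi-likelihood F test (bias-adjusted form) compared CK1i with CTRL, two-sided, with Benjamini-Hochberg adjustment over all tested genes and a threshold of 0.05. SE is the log2 fold change divided by the root of F, in absolute size. Log2 CPM used a prior count of 2. In simulated data for this comparison (9944 genes), 87 of 100 genes changed 2-fold and 99 of 100 changed 4-fold were recovered, with 12 false calls. The simulation used the trended dispersion of the real fit, without gene-specific spread, and every planted change was an increase. These shares therefore do not give the recovery in the real libraries. Alternatives were DESeq2 1.42.0, limma-voom (limma 3.58.1), other scalings and filters, summed copies, and leaving out each library. All libraries carry the same batch label. Gene identifiers matched GENCODE M21 for 54165 of 54232, and 67 did not match.

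Relations across libraries used exact permutation tests, and 7 of 9 intended relations of Nlrc5 could be computed. Protein sequences were not used here. The members and gene lists were chosen with earlier results of these data known. Named genes are the members, their near copies, up to 4 genes with the smallest p of each pathway list, and a few fixed genes of the pathway (Irf1, Tap1, Tap2, Tapbp, Psmb8, Psmb9, Psmb10, Rfx5 and Ciita); marker genes come from the fixed marker lists. A gene that this rule also names is not reported here and was left out of its list.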

Additional observations from a re-analysis of the deposited data

How the results depend on the processing

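No paired analysis was possible because the labels carry no replicate numbers that the groups share; replicates 1 to 3 are names given in the order of deposit and pair nothing. No member passed the adjusted threshold under any of the 13 alternatives run, summed copies included. The count of all genes past it was 0 in the analysis reported, 8 with DESeq2, 3 with no filter, and 0 to 1 with 1 library left out; with RLE scaling, library size alone, limma-voom or the stricter filter it was 0. H2-T22 kept a log2 fold change above 0 in 12 of 12 settings (0.61 to 0.76). Its groups did not overlap, so leaving out 1 library could hardly reverse its sign, and all settings drew on the same counts. With H2-T10 added, fits without each library in turn, run after seeing the data, gave 0.54 to 0.69. The other 7 tested members each changed sign somewhere. With library size scaling alone H2-K1 was at 0.0019. Without CK1i replicate 1, H2-D1 was at -0.04, H2-Q4 at -0.06, H2-Q7 at 0.02, and H2-Q6 and H2-Q7 summed at 0.04. Without CK1i replicate 2, H2-K1 was at 0.02 and H2-M3 at 0.0053, and without CK1i replicate 3 Nlrc5 was at -0.16. Over the left-out libraries the lowest and highest values were -0.068 and 0.12 for B2m, -0.042 and 0.016 for H2-K1, -0.037 and 0.11 for H2-D1, -0.16 and 0.23 for H2-Q4, -0.20 and 0.024 for H2-Q7, -0.18 and 0.11 for H2-M3, -0.16 and 0.31 for Nlrc5, and -0.19 and 0.039 for H2-Q6 and H2-Q7 summed. Without CTRL replicate 1 B2m was at -0.07, without CTRL replicate 2 H2-M3 was at 0.11, and without CTRL replicate 3 H2-Q4 was at -0.16. In each of these cases the adjusted p stayed above 0.9, and the cause was not tested. At 2472064 to 3105137 counts a library, H2-T23 and H2-T24 were too low to test.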
